A study of Homo sapiens with 7 samples.

Results

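Histone genes fall into a replication-dependent set and a set of replacement variants, and their transcripts were followed in 3 libraries given PBS and 4 libraries given PTH (parathyroid hormone). The members were all genes of the deposited tables whose symbols start with Hist1h to Hist4h (replication-dependent) or with H2af, H3f3 or H1f (variant). They made up 44 of 21779 gene symbols, 31 replication-dependent and 13 variant, and were listed in 48 rows. The labels give every library as LX2, an established line of liver stellate cells of human origin, with PBS or PTH as the treatment. Dose, exposure time and separate cultures are not stated in the sources used here, so p-values speak only for the variation among these 7 libraries, some of which may be technical. All gene identifiers in the tables are rat Ensembl identifiers, so rat symbols are used. Whether the RNA was selected by its poly(A) tail or by removal of ribosomal RNA is likewise not stated.

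Nucleosomes are spools of DNA around the core histones H2A, H2B, H3 and H4, and the linker histone H1 binds where DNA enters and leaves the spool. Replication-dependent histone genes lie in clusters, lack introns and are used in S phase, when new DNA has to be packed. Their mRNAs end in a short hairpin, the stem-loop bound by the protein SLBP, in place of a poly(A) tail. Variant genes lie alone, mostly have introns and poly(A) tails, and supply histones outside S phase.

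The hairpin is what separates the mRNAs of the sets, and it is shown here in human genes that share a symbol with a member. The stem-loop was searched on the transcript strand as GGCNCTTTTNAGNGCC in protein-coding transcripts of GENCODE release 29. It was found in 31 of 71 human replication-dependent genes, in 1 of 16 human variant genes and in 2 of 19582 other genes. Of the members, 22 replication-dependent and 13 variant genes have a human gene of the same symbol, and 8 and 1 of these hold the match. How far these gene models reach past the coding sequence was not measured, and the pattern fixes most of its letters. A missing match therefore says only that the letters are not in the model. The hairpin is in capitals, on build GRCh38, in HIST1H2BL (chr6:27807479-27807504, minus strand), HIST2H2BE (chr1:149886183-149886208, minus strand), HIST1H4B (chr6:26026896-26026921, minus strand), HIST3H2BB (chr1:228458533-228458558, plus strand) and H2AFX (chr11:119094893-119094918, minus strand).
HIST1H2BL: ccaaaGGCTCTTTTCAGAGCCactca
HIST2H2BE: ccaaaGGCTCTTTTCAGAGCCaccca
HIST1H4B: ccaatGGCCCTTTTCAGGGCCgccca
HIST3H2BB: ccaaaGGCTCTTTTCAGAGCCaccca
H2AFX: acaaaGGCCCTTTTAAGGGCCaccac
H2AFX is the variant gene with a hairpin.

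Values are FPKM, a fragment count corrected for transcript length and library depth. Between genes they also depend on the listed gene model, on any poly(A) selection and on how reads matching more than 1 gene were assigned. Levels of different genes, and of replication-dependent against variant genes, therefore compare only roughly. Summed over all genes they came to between 519845 and 532909 in the PBS libraries and to between 472621 and 509859 in the PTH libraries. PTH library 1 stood farthest from the PBS libraries on the first principal component (36.03, against -24.66 to -20.33 for PBS) and PTH library 2 nearest (0.01). Mitochondrially encoded mRNAs took 5.78 to 5.90% of the sum with PBS and 0.867, 3.61, 2.40 and 3.03% in PTH libraries 1 to 4. The stellate label was checked on 12 markers, which went both ways. With PBS, Timp1, Vim, Col1a1, Col3a1 and Lox had means of 1792, 702, 291, 109 and 91.4 FPKM. Des, Pdgfrb, Hand2, Acta2 and Gfap had means of 5.20, 2.39, 1.70, 0.919 and 0.728 FPKM. Lrat and Reln, which mark quiescent stellate cells, were listed at 0. Of 7 hepatocyte markers 5 were listed at 0 throughout and their sum stayed at or below 0.866 FPKM. Leukocyte and endothelial markers summed to 13.1 to 20.9 and 2.05 to 6.07 FPKM over all libraries. Cholangiocyte markers summed to 344 to 354 FPKM with PBS and 284 to 323 FPKM with PTH, nearly all of it Spp1, and their part in the results was not tested.

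Histone transcripts were abundant and unevenly spread over the genes. Replication-dependent rows together held 2.21 to 2.23% of the summed FPKM with PBS and 2.47 to 3.05% with PTH, and variant rows 0.370 to 0.372% and 0.341 to 0.349%. The highest replication-dependent gene was Hist1h4b, one of the genes of core histone H4, at 1544 ± 43.7 FPKM with PBS (SD, n = 3), and the highest variant gene was H3f3b at 1070.4 ± 0.395 FPKM. Genes entered the test when their mean level reached 1 FPKM, which 27 replication-dependent and 8 variant genes did. Listed at 0 in all libraries were Hist1h4m, H1fnt, H1foo, H2afb3 and H2afj. Hist1h1t, Hist1h2aa, Hist2h2be and H2afy2 were above 0 somewhere but below the limit. H1fnt and Hist1h1t are testis linker histones, H1foo an oocyte linker histone and Hist1h2aa a testis H2A.

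**Figure D1:**
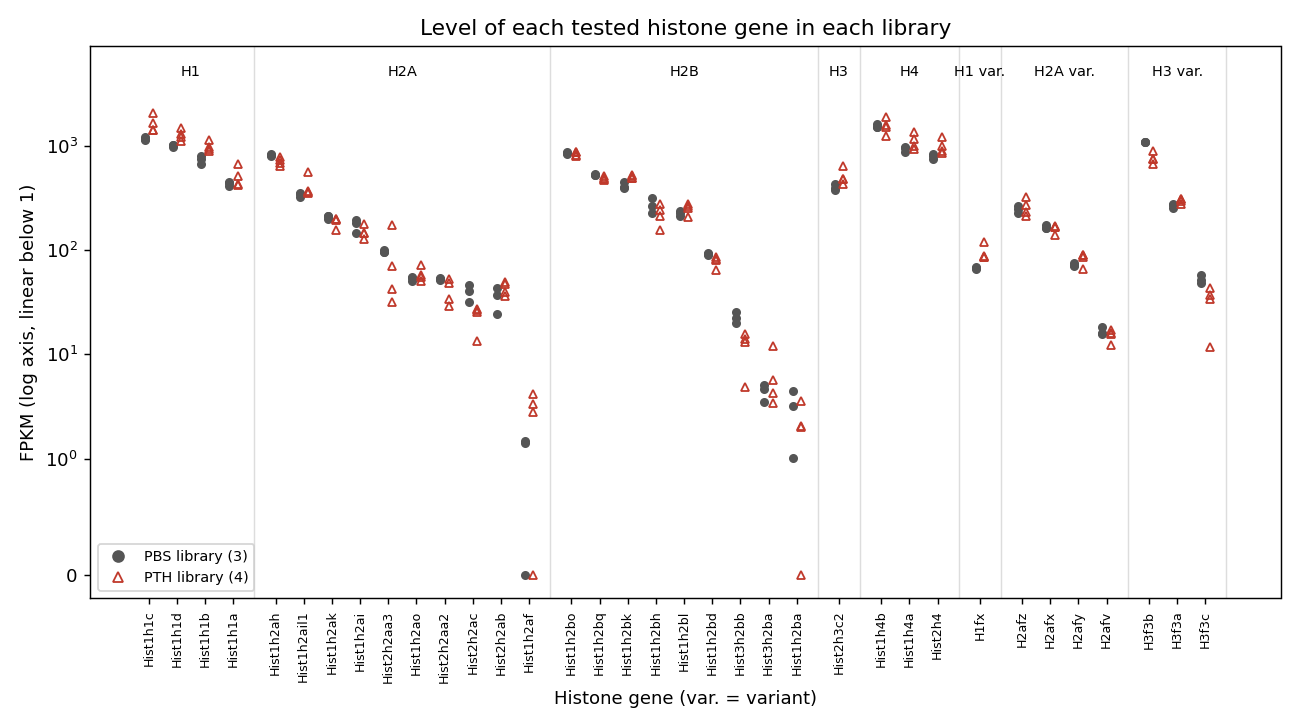
FPKM of each tested histone gene (log axis, linear below 1) in the 3 PBS libraries (grey dots) and the 4 PTH libraries (red triangles), by histone class. The levels run from 0 in some libraries for Hist1h2af and Hist1h2ba to 2068 FPKM for Hist1h1c in PTH library 1, and the triangles of Hist1h1b, Hist1h1c, Hist1h1d and H1fx lie above their dots.

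The linker histone genes Hist1h1b and H1fx and the H2B gene Hist1h2bk were higher in the PTH libraries, and H3f3b, a gene of variant H3.3, was lower. By limma's moderated test on log2(FPKM + 1), with Benjamini-Hochberg adjustment over all 10661 tested genes, 2 of 27 replication-dependent genes rose (Hist1h1b and Hist1h2bk) and 0 fell. Of the 8 variant genes H1fx rose and H3f3b fell. Among all tested genes 3.45% rose and 7.96% fell. That split of 368 to 849 became 593 to 557 after median centring, where limma also called Hist1h1c and Hist1h1d higher. At an unadjusted limma p under 0.05 the replication-dependent genes numbered 6 higher and 4 lower, and the variant genes 2 higher and 1 lower. Of all tested genes 33.9% passed that unadjusted threshold, 12.2% higher and 21.7% lower. The authors' deposited table gives an FDR under 0.05 to 5 higher and 2 lower replication-dependent genes and to 1 higher and 2 lower variant genes, against 3.85% higher and 7.55% lower of all symbols.

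The median log2 fold change was 0.14 over the 27 replication-dependent genes and -0.00092 over the 8 variant genes, against -0.04 over all tested genes. In the replication-dependent set 14 genes lay above 0 and 13 below, in the variant set 4 and 4, and of all tested genes 44.6% lay above 0. The 4 PTH values all lay above the 3 PBS values in 5 replication-dependent genes and 1 variant gene, and all below in 5 and 2. Among all tested genes these shares were 12.7% above and 20.8% below. Without PTH library 1 the median of the replication-dependent genes was -0.0033, and without PTH library 2 it was -0.0029. In bulk RNA a different number of cells in S phase and a different amount of histone RNA per cell cannot be told apart.

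**Figure D2:**
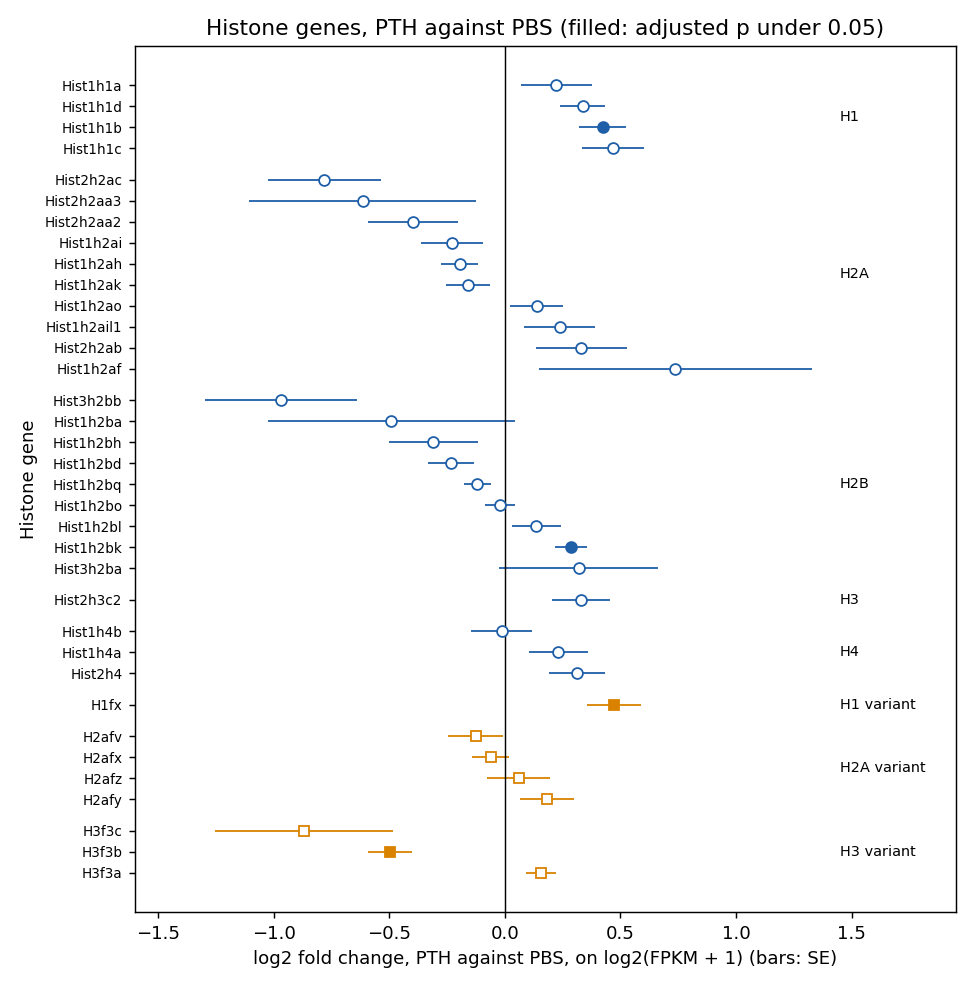
Log2 fold change of PTH against PBS on log2(FPKM + 1), with its standard error as a bar, for the 35 tested histone genes (blue dots replication-dependent, orange squares variant). Filled symbols mark the 4 genes with an adjusted p under 0.05, and all 5 H1 genes lie to the right of 0.

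Linker histone genes of the Hist1 cluster lay above PBS, and Hist1h1b passed the limma test. The cluster holds 5 H1 members, of which 4 were tested, all with a log2 fold change above 0 and a median of 0.38. Hist1h1b stood at 738, 662 and 788 FPKM in PBS libraries 1 to 3 and at 1130.0, 889, 977 and 921 FPKM in PTH libraries 1 to 4. The groups did not overlap, and the log2 fold change was 0.42 ± 0.10 (SE) with a limma adjusted p of 0.0391. Hist1h1c, the most abundant of them, held 1145, 1138 and 1209 FPKM with PBS against 2068, 1418, 1630.4 and 1399 FPKM with PTH. Hist1h1d held 1014, 965 and 1021 FPKM against 1473, 1113, 1291 and 1205 FPKM. Neither gene's groups overlapped, yet both just missed the threshold, with log2 fold changes of 0.47 ± 0.13 (SE) and 0.34 ± 0.10 (SE) and limma adjusted p of 0.0571 and 0.0576. Both were called higher without PTH library 1 and without PTH library 2. Neither was called when any other library was left out (limma adjusted p from 0.0629 to 0.187). Over all tested genes, leaving out PTH library 2 gave 828 higher and 1924 lower calls, against 368 and 849 with all libraries. Hist1h1a was at 435, 408 and 446 FPKM with PBS and at 673, 431, 515 and 422 FPKM with PTH. PTH libraries 2 and 4 lay within the PBS range for this gene, and its log2 fold change of 0.22 ± 0.15 (SE) did not pass (limma adjusted p of 0.336) and was 0.08 without PTH library 1. Hist1h1t, the testis H1, was listed at 0 except for 0.380 FPKM in PTH library 1.

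H1fx, a linker histone gene outside the clusters whose product is the variant H1.X, rose too. It held 68.0, 65.3 and 67.0 FPKM in the PBS libraries and 118, 85.8, 86.9 and 84.7 FPKM in the PTH libraries. PTH library 1 stood apart from 3 PTH libraries that lay close together, and all 4 were above PBS. The log2 fold change was 0.47 ± 0.12 (SE) with a limma adjusted p of 0.0432, and 0.36 without PTH library 1 (adjusted p of 0.0122).

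Among the PTH libraries the median difference of the Hist1h1 genes ran in the opposite order to the mitochondrial share. The median difference of the 4 tested Hist1h1 genes from their PBS mean, on log2(FPKM + 1), was 0.64, 0.22, 0.40 and 0.27 in PTH libraries 1 to 4. PTH library 1, with the lowest mitochondrial share, was the highest and PTH library 2, with the highest share of the PTH group, the lowest. Single genes did not all keep this order: Hist1h1a, Hist1h1c and H1fx were lower in PTH library 4 than in PTH library 2. In PBS library 2 both the share and the median difference were the lowest of the PBS group. With that share as a covariate the log2 fold changes of Hist1h1b and H1fx were 0.0027 and -0.13 and that of H3f3b was -0.05, while that of Hist1h2bk was 0.29. Hist1h1a, Hist1h1c and Hist1h1d were at -0.63, -0.26 and -0.14, so 1 of the 4 tested Hist1h1 genes lay above 0 (median of -0.20). None of the 4 called histone genes passed with this covariate, with limma adjusted p from 0.388 to 0.996. The PBS and PTH shares do not overlap, so PTH and the share cannot be told apart in these libraries.

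**Figure D3:**
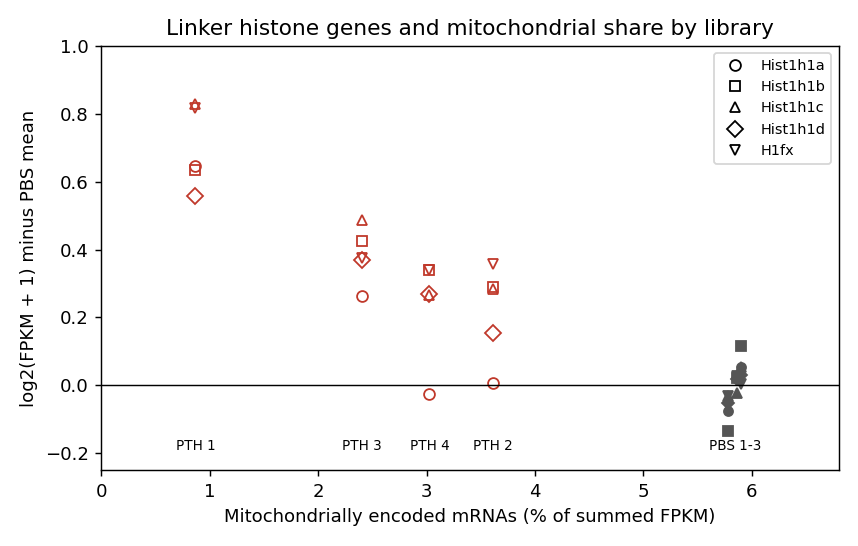
Difference of log2(FPKM + 1) from the PBS mean for 5 linker histone genes (y axis) against the mitochondrial share of the library (x axis, % of summed FPKM), PBS in grey and PTH in red. The PTH libraries run from PTH library 1 at 0.867% and a Hist1h1 median difference of 0.64 to PTH library 2 at 3.61% and 0.22, and the PBS libraries sit together at 5.78 to 5.90%.

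Core H2A and H2B genes of the clusters were split in direction. Of 10 tested H2A genes 4 lay above 0 and 6 below (median log2 fold change of -0.18), and of 9 tested H2B genes 3 lay above and 6 below (median of -0.12). The 4 H2A genes above 0 include Hist1h2ail1, whose class is uncertain, and Hist1h2af, which stayed at or below 4.15 FPKM. Limma called 0 of the H2A genes, with 2 at an unadjusted p under 0.05, both lower, and the authors' deposited table gives 1 of them, Hist2h2ac, an FDR under 0.05. Among all tested genes limma called 11.4%, and 21.7% were lower at an unadjusted p under 0.05. Hist1h2bk, an H2B gene of the large cluster and one known to give polyadenylated transcripts as well, held 399, 395 and 450.0 FPKM with PBS and 517, 526, 492 and 488 FPKM with PTH. Its groups did not overlap, it lay evenly high in all 4 PTH libraries, and its log2 fold change was 0.29 ± 0.07 (SE) with a limma adjusted p of 0.0396. Of 7 genes listed for such transcripts 4 were found and 3 tested, and the others, Hist1h1c and Hist1h2bd, had log2 fold changes of 0.47 and -0.23 without passing. The most abundant H2B gene, Hist1h2bo, had a mean of 848 ± 16.3 FPKM (SD, n = 3) in the PBS group against 837 ± 41.0 FPKM (SD, n = 4) in the PTH group. Hist1h2bq, at 471.6 to 510.4 FPKM with PTH and 521 to 534 FPKM with PBS, and Hist1h2bd, at 64.3 to 85.5 and 88.7 to 92.6 FPKM, had all PTH values below PBS but did not pass (limma adjusted p of 0.182 and 0.139). Hist1h2bh and Hist1h2bl, at 154 to 314 and 205 to 278 FPKM over all libraries, overlapped between the groups. Hist1h2ba, the testis H2B, and Hist3h2ba stayed at or below 12.1 FPKM.

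Among the H2A genes of the Hist1 cluster Hist1h2ah was the highest, at 786, 824 and 809 FPKM with PBS and 727, 777, 685 and 634 FPKM with PTH. All PTH values were lower, with a log2 fold change of -0.20 ± 0.08 (SE) that did not pass (limma adjusted p of 0.127). When single libraries were left out, limma called Hist1h2ah lower only without PTH library 2. Hist1h2ai, Hist1h2ak and Hist1h2ao, at 128 to 196, 155 to 213 and 50.6 to 72.4 FPKM over all libraries, overlapped between the groups, as did Hist2h2ab at 24.2 to 49.8 FPKM. Hist1h2af stayed at or below 4.15 FPKM.

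The lowest log2 fold changes of the clusters were in genes of the Hist2 and Hist3 clusters with low levels. Hist3h2bb, an H2B gene, held 25.5, 19.8 and 22.3 FPKM with PBS and 4.91, 13.0, 14.0 and 15.5 FPKM with PTH. Hist2h2ac, an H2A gene, held 40.1, 31.9 and 46.2 FPKM against 13.3, 25.4, 27.0 and 26.6 FPKM. In both the groups did not overlap and PTH library 1 was the lowest, and the log2 fold changes of -0.97 ± 0.33 (SE) and -0.78 ± 0.24 (SE) did not pass, with limma adjusted p of 0.0855 and 0.0689. The authors' deposited table gives them FDR values of 0.00206 and 0.0274. Without PTH library 1 limma called both lower, at -0.63 and -0.55 (adjusted p of 0.0232 and 0.0378). Leaving out any other single library gave no call of either gene.

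Hist2h2aa3, another H2A gene, varied widely among the PTH libraries. It was at 96.4, 96.2 and 101 FPKM with PBS and at 42.2, 173, 69.9 and 31.5 FPKM with PTH, so PTH library 2 lay above and the other PTH libraries below the PBS values. Limma did not call it (adjusted p of 0.404). When single libraries were left out, limma called it lower only without PTH library 2. In the lower table, 10 of 13 replication-dependent genes with a listed span cover fewer than 500 bases, from 378 to 470, and 8 of the 10 are multiples of 3 long, as coding sequences without the hairpin end are. For the 5 H2A genes with a span of 393 bases the values of 6 libraries were whole multiples of 1 step, within 0.02, that is of 1.38 to 1.66 FPKM per fragment. For PTH library 1 no such step between 1 and 2.5 FPKM was found. On that scale Hist2h2aa3 rested on 65, 62 and 71 fragments with PBS and on 125, 50 and 19 in PTH libraries 2, 3 and 4. Hist1h2ah, the most abundant of the 5, rested on 382 to 569 fragments, and Hist2h2aa2 on 24 to 38. How reads that match more than 1 histone gene were assigned is not stated in the labels or headers, and the split between similar genes was not tested.

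The summed FPKM of each class gave the following. The 5 H1 rows of the Hist1 cluster summed to 3332, 3172 and 3464 FPKM with PBS and to 5343, 3851, 4413 and 3947 FPKM with PTH, a ratio of means of 1.32, with no overlap. The 14 H2A rows summed to 2309.5, 2300.3 and 2320 FPKM against 2437, 2420.2, 2139 and 2018 FPKM, and the 10 H2B rows to 2401, 2397 and 2419 FPKM against 2384, 2545, 2383 and 2271 FPKM. On these sums both core classes had PTH libraries on either side of PBS, with ratios of 0.976 and 0.996. As a percentage of the summed FPKM of the library, H2B was 0.454 to 0.461 with PBS and 0.478 to 0.499 with PTH, all above. On that scale H2A was 0.435 to 0.4425 with PBS and 0.489, 0.475, 0.438 and 0.427 in PTH libraries 1 to 4. The 4 H4 rows summed to 3287, 3227 and 3267 FPKM against 4426, 3445, 3665 and 2994 FPKM, so PTH library 4 was below PBS and the others above. As a percentage of the summed FPKM of the library, H4 was 0.613 to 0.622 with PBS. It was 0.888, 0.676, 0.750 and 0.6335 in PTH libraries 1 to 4, all above. The summed FPKM of the library includes mitochondrially encoded mRNAs, at 5.78 to 5.90% with PBS and 0.867 to 3.61% with PTH. A smaller mitochondrial share by itself raises the percentage of every other class. Whether H2B and H4 stay above PBS as a percentage of the sum without those mRNAs was not tested. The ratio of summed H1 to summed H2A was 1.44, 1.38 and 1.49 with PBS and 2.19, 1.59, 2.06 and 1.96 with PTH. The H2A sum includes 4 rows of Hist1h2ail1, whose class is uncertain because its alternative names in the deposited tables include an H3 histone. Without them the H2A rows summed to 1463, 1455 and 1484 FPKM with PBS and 1233, 1501, 1263 and 1160.4 FPKM with PTH, a ratio of means of 0.879. PTH library 1 then lay below PBS instead of above, and PTH library 2 alone lay above. The ratio of H1 to H2A without them was 2.28, 2.18 and 2.33 with PBS and 4.33, 2.56, 3.50 and 3.40 with PTH.

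**Figure D4:**
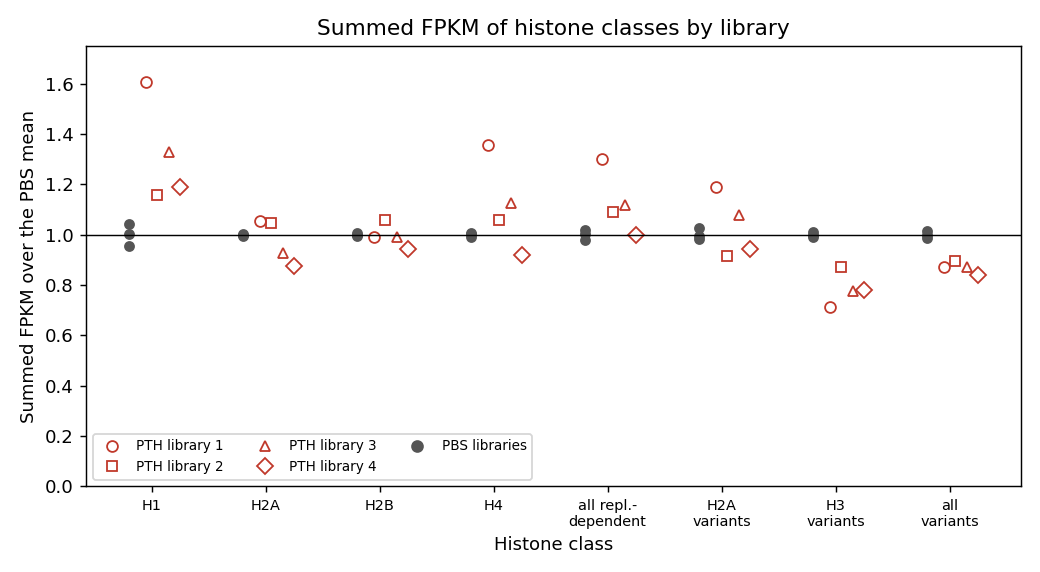
Summed FPKM of histone classes in each library, divided by the PBS mean of the class (PBS libraries as grey dots, the 4 PTH libraries as red open symbols). H1 has all PTH libraries above the PBS libraries, H3 variants have all below, and H2A and H2B have them on both sides of 1.

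Limma called 0 of the 4 tested H3 and H4 genes of the clusters, against 11.4% of all tested genes. An unadjusted limma p under 0.05 was reached by 2 of the 4, Hist2h3c2 and Hist2h4, against 33.9% of all tested genes. The authors' deposited table gives these 2 an FDR of 0.00928 and 0.0111. Hist2h3c2, the replication-dependent H3 gene of the tables, was at 393, 373 and 432 FPKM with PBS and at 630.5, 482, 479 and 432 FPKM with PTH, with the lowest PTH library within the PBS range (log2 fold change 0.33 ± 0.13 (SE), limma adjusted p of 0.111). Hist2h4, an H4 gene, was at 822, 741 and 796 FPKM against 1206, 887, 995 and 850 FPKM, without overlap (0.31 ± 0.12 (SE), adjusted p of 0.114). Hist1h4a had a log2 fold change of 0.23, and 0.13 without PTH library 1. Hist1h4b stood at 1517, 1520.1 and 1594 FPKM with PBS and at 1872, 1566, 1521 and 1223 FPKM with PTH, with 1 PTH library above the PBS range, 1 below and the others within it (log2 fold change of -0.01). Hist1h2ail1, of uncertain class, was listed in 4 rows with PBS means of 339.9, 259.9, 164 and 78.5 FPKM.

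Of the H3.3 genes H3f3b fell, while H3f3a, known to encode the same protein, did not pass the test. H3.3 replaces H3 outside replication, where chaperones such as HIRA and the DAXX and ATRX pair deposit it. H3f3b stood at 1070.4, 1071 and 1070.0 FPKM in the PBS libraries and at 668, 893, 738 and 750.1 FPKM in the PTH libraries. All PTH values were lower, with PTH library 2 nearest to PBS, and the log2 fold change was -0.50 ± 0.10 (SE) with a limma adjusted p of 0.0285. H3f3a stood at 270.3, 252 and 277 FPKM and at 309, 276, 308 and 297 FPKM. Its groups overlapped by PTH library 2, and its log2 fold change of 0.16 ± 0.07 (SE) did not pass (limma adjusted p of 0.141). The ratio of H3f3b to H3f3a was 3.96, 4.25 and 3.86 with PBS and 2.17, 3.24, 2.40 and 2.53 with PTH, without overlap.

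H3f3c, the remaining gene of that name, was the lowest of them. It held 48.7, 51.6 and 58.1 FPKM with PBS and 11.7, 43.0, 34.0 and 37.2 FPKM with PTH. All PTH values were below PBS and PTH library 1 was far below the others, so the log2 fold change of -0.87 ± 0.38 (SE) did not pass (limma adjusted p of 0.152). Without PTH library 1 the log2 fold change was -0.46 and limma called it lower (adjusted p of 0.0350). Leaving out any other single library gave no call of H3f3c. The authors' own FDR, with all libraries, was 0.000651 for H3f3c and 0.00162 for H3f3b, both lower. The 3 genes summed to 1389, 1374 and 1405 FPKM with PBS and 988, 1212, 1080.2 and 1084 FPKM with PTH, a ratio of means of 0.785.

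**Figure D5:**
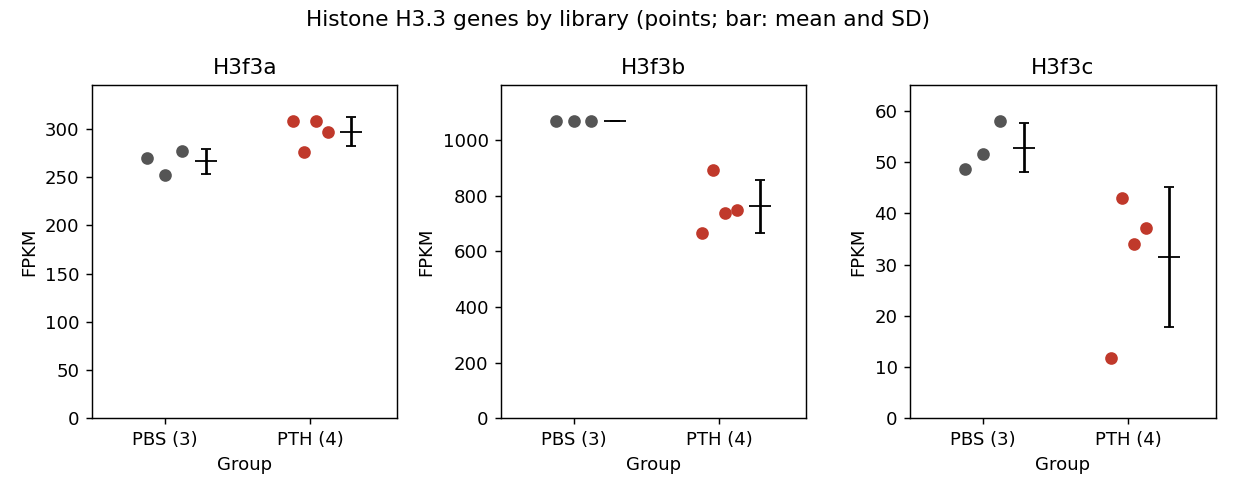
FPKM of the 3 H3f3 genes in each library (dots), with the mean and SD of the group beside them, for 3 PBS and 4 PTH libraries. H3f3b lies at 1070.0 to 1071 FPKM with PBS and 668 to 893 FPKM with PTH, H3f3a at 252 to 309 FPKM over both groups, and H3f3c at 11.7 FPKM in PTH library 1.

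No H2A variant passed the test. Limma called 0 of the 4 tested, with 0 at an unadjusted p under 0.05, and the authors' deposited table gives none of them an FDR under 0.05. Among all tested genes limma called 11.4%, and 33.9% had an unadjusted p under 0.05. H2afz and H2afv encode forms of H2A.Z, found at promoters, and had means of 244 ± 17.5 and 16.6 ± 1.36 FPKM (SD, n = 3) in the PBS group against 257 ± 47.3 and 15.2 ± 1.99 FPKM (SD, n = 4) in the PTH group. H2afx, whose product is phosphorylated at DNA breaks, was at 166 ± 6.19 and 159 ± 13.3 FPKM. H2afy, a macroH2A gene, was at 72.3 ± 2.38 and 82.9 ± 12 FPKM, with PTH library 2 below PBS and the other PTH libraries above. When single libraries were left out, limma called H2afy higher only without PTH library 2. The order of level, H2afz over H2afx over H2afy over H2afv, was the same in all 7 libraries.

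The ratio of replication-dependent to variant transcripts was higher in all 4 PTH libraries than in any PBS library. Replication-dependent rows summed to 11722, 11469 and 11902 FPKM with PBS and to 15221, 12743, 13079 and 11661 FPKM with PTH, where PTH library 4 was within the PBS range. Variant rows summed to 1954, 1929.9 and 1985 FPKM against 1702, 1755, 1707 and 1639 FPKM, all below. The ratio of the sums was 6.0, 5.94 and 6.0 with PBS and 8.94, 7.26, 7.66 and 7.12 with PTH. H3f3b alone held 1070.4 of the variant mean of 1956 FPKM with PBS.

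The regions upstream of the 4 called genes are shown because cAMP, the messenger of the PTH receptor, is known to act through the CRE site TGACGTCA. They are the 250 bases before the RefSeq start of the human genes with the same older symbol, on GRCh38.p14. Searched on both strands were the CRE, the CCAAT box (CCAAT), the H1 box (AAACACA), known from linker histone promoters, and the TATA box (TATAAA). Matches are in capitals and may overlap each other, as the upstream TATA matches of H2BC12 do. H1-5 (Hist1h1b) is at chr6:27867589-27867838, H2BC12 (Hist1h2bk) at chr6:27146859-27147108, H1-10 (H1fx) at chr3:129316287-129316536 and H3-3B (H3f3b) at chr17:75779780-75780029, each on the minus strand.
H1-5: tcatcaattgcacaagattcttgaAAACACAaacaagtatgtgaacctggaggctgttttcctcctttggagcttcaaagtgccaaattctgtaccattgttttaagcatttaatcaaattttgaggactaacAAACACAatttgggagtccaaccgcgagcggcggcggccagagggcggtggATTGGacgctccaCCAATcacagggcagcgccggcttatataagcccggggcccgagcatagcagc
H2BC12: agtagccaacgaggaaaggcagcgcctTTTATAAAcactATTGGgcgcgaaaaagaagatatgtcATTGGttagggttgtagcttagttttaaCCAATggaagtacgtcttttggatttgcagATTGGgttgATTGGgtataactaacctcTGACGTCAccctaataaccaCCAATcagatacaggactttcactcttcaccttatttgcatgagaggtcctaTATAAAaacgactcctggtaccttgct
H1-10: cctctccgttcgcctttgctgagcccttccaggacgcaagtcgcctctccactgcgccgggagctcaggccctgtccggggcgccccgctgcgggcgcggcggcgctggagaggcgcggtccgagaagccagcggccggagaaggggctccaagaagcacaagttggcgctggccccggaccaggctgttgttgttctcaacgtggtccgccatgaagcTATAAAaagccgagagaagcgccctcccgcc
H3-3B: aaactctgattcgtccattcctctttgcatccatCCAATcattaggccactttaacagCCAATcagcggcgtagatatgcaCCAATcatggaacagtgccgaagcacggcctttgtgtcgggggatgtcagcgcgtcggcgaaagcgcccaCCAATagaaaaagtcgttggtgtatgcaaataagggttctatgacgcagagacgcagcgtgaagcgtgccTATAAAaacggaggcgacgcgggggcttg
The full CRE was found 99 bases before the start of H2BC12 and in no other of 21 matched replication-dependent and 12 matched variant genes, against 1.77% of 27305 human promoters. Shorter forms of the CRE were not searched. The H1 box was found in 5 of 5 Hist1h1 genes, in 0 of 6 matched H2A and 0 of 8 matched H2B genes of the clusters, and in 4.95% of all promoters. In H1-5 it lies 226 and 117 bases before the start, and H1-10 has none. The CCAAT box was found in 19 of 21 and 9 of 12, against 33% of all promoters. These are matches of letters in human sequence, not shown to be sites in the cells studied.

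Genes known to process histone mRNA or to handle histone proteins were set beside all tested genes, of which limma called 11.4%, 3.45% higher and 7.96% lower. Of 17 tested genes for histone mRNA processing, which include Slbp and the parts of the U7 particle, limma called 0, with 7 at an unadjusted p under 0.05, against 33.9% of all tested genes, and 5 lay above 0 (median log2 fold change of -0.17). Snrpf, a core protein of small nuclear ribonucleoproteins, came nearest, with means of 126 ± 5.19 FPKM (SD, n = 3) in the PBS group and 76.1 ± 23.7 FPKM (SD, n = 4) in the PTH group (limma adjusted p of 0.0668). Of 23 tested histone chaperones and related genes 2 fell and 1 rose, with 10 above 0 and a median of -0.0038. Asf1a, which hands H3 and H4 to other chaperones, fell from 45.3 ± 4.88 to 31.0 ± 4.66 FPKM (limma adjusted p of 0.0397). Hat1, which acetylates new H4, fell from 87.1 ± 3.73 to 64.9 ± 8.67 FPKM (0.0391). Ubn1, a partner of HIRA in depositing H3.3, rose from 23.4 ± 1.80 to 29.6 ± 2.26 FPKM (0.0490). Leaving out any PBS library, or PTH library 3 or 4, ended each of these 3 calls, and that of Ubn1 ended also without PTH library 1. All 3 ended without the filter on low values or the variance trend, and that of Asf1a also under median centring and quantile normalization (limma adjusted p of 0.0522 and 0.0529).

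Of 21 tested S phase and proliferation genes, listed because replication-dependent histones are used in S phase, 1 fell and 0 rose. Whether the level of these genes followed that of the histones was not tested. Among all tested genes 7.96% fell and 3.45% rose. In the list 8 genes had an unadjusted limma p under 0.05, a threshold that 33.9% of all tested genes passed. Tyms, which makes thymidylate for DNA, fell from 59.0 ± 1.39 to 46.8 ± 4.01 FPKM (limma adjusted p of 0.0391), a call that ended when any PBS library or PTH library 3 or 4 was left out, and under median centring, quantile normalization and no variance trend. Of the list 11 lay above 0 and the median was 0.01. The summed level of the list was 2238 to 2307 FPKM with PBS and 2182 to 2304 FPKM with PTH.

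All 4 histone calls ended when any 1 of PBS library 1, 2 or 3 or PTH library 3 or 4 was left out, and held without PTH library 1 or without PTH library 2. Directions held in each of these 7 cases, with H3f3b between -0.58 and -0.44, Hist1h1b between 0.35 and 0.48, H1fx between 0.36 and 0.52 and Hist1h2bk between 0.25 and 0.35. GC content also moved with the fold changes. The human transcripts have a GC content of 43.1% for H3f3b and 68.6% for H1fx. Those tested genes that have a human gene of the same symbol were put into 5 equal bins by its GC content. The bin of H3f3b (41.0 to 45.8%) had a median log2 fold change of -0.14 and that of H1fx (58.5 to 74.1%) one of 0.14. H3f3a, at 40.5%, belongs to the bin of lowest GC content (30.2 to 41.0%), whose median was -0.26, while its own log2 fold change was 0.16. For Hist1h1a to Hist1h1d the GC content was 53.2, 59.3, 57.5 and 54.4%, and for Hist1h2bk 61.2%. Hist1h1b and Hist1h2bk thus belong to the bin of H1fx. Hist1h1a, Hist1h1c and Hist1h1d belong to the bin of 52.2 to 58.5%, whose median was 0.06. A GC check over the replication-dependent genes is void, since 70.4% of those tested had a human gene of the same symbol. The part of GC content in these results was not tested.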

How the data were processed

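Gene expression was measured by RNA sequencing in 3 PBS and 4 PTH libraries, grouped and numbered by their titles. The authors deposited FPKM values per gene and library in tables of 14913 and 7149 rows, per the file headers. The authors' own p-value and FDR per gene were deposited with them. The authors' log2 fold changes were deposited too, and in the table of higher genes that column was checked only as a score because 1 value is outside the range of a log2 scale. Per the submitters' processing notes, Bowtie 0.12.2 and mm8 were used. The sources used here give no FPKM program, annotation release or rat build, so no rat coordinates are printed. The notes, the labels and the identifiers name different species.

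Each symbol was represented by its row of highest mean, 18 rows without a symbol were left out, and genes whose mean reached 1 FPKM were tested on log2(FPKM + 1). The test was limma 3.58.1 in R 4.3.3, with a variance trend, two-sided, no covariates, Benjamini-Hochberg adjusted over 10661 genes, called under 0.05. Values after ± are SD for FPKM and SE for log2 fold changes, which on this scale understate the change of low genes. The depth of the libraries is unknown. The histones and the lists were chosen with earlier results of these data known. Every histone gene is accounted for, and from other lists up to 4 called genes with the smallest p, or else the gene with the smallest p, are named by rule (Cd14 and Egfl7 came first among leukocyte and endothelial markers, with limma adjusted p of 0.349 and 0.655, and Spp1 among cholangiocyte markers with 0.0605; Vim was called higher at 0.0258). Human sequences came from GENCODE release 29 and RefSeq GRCh38.p14 and were matched by symbol. Alternatives covered the pseudocount, filters, scaling, rows per symbol, variance trend, library weights, replicate number and each library left out.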

Additional observations from a re-analysis of the deposited data

Results flagged for a closer look

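Among 48 values with 4 PTH libraries, 6 had a single PTH library far from the other 3, measured as its distance to the closest of them over the group's range. Chance gives about 1 in 20 for a single value, and these values share the same libraries. PTH library 1 was the high one for H1fx, at 118 FPKM against 84.7 to 86.9 FPKM (gap over range 0.935), and for Hist1h2ail1, at 554 against 351 to 366 FPKM (0.924). It was the low one for Hist2h2ac, at 13.3 against 25.4 to 27.0 FPKM (0.881), and for Hist1h2ak, at 155 against 193 to 199 FPKM (0.862). PTH library 4 was low for H2afx, at 139.7 against 164 to 168 FPKM (0.865), and PTH library 2 was low for H2afy, at 65.1 against 86.1 to 90.3 FPKM (0.830).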

How the results depend on the processing

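The number of calls depended on the setting, over all genes and over histones. With all libraries as reported 368 genes were higher and 849 lower, 2 replication-dependent genes were higher and 0 lower, and 1 variant gene each way. Without a filter on low values the counts were 212 and 553, with 0 replication-dependent and 0 variant genes higher, and without the variance trend 184 and 441, again with 0 and 0. In both of these H3f3b was still called lower (limma adjusted p of 0.0413 and 0.0442). Median centring gave 593 higher and 557 lower (replication-dependent: 4 higher) and quantile normalization 663 higher (4). These scalings moved the median of all genes from -0.04 to 0.03 and 0.02. Library weights gave 1954 and 3239 calls, with 7 higher and 7 lower replication-dependent genes (median -0.039) and 3 and 2 variant genes. The mitochondrial share as a covariate, chosen after seeing the data, gave 0 higher and 1 lower gene and called 0 histone genes, with medians of -0.10 for replication-dependent and -0.17 for variant genes, and the signs of the called genes H1fx (-0.13), Asf1a (0.054) and Hat1 (0.010) turned. The cause was not tested.

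Signs also turned among genes that were not called. Under that covariate the log2 fold changes became negative for Hist1h1a (-0.63), Hist1h1c (-0.26), Hist1h1d (-0.14), Hist1h2ail1 (-0.59), Hist1h2ao (-0.43), Hist2h2ab (-0.26), Hist2h3c2 (-0.23), Hist1h4a (-0.41), Hist2h4 (-0.29), H2afy (-0.27), H2afz (-0.66) and H3f3a (-0.0088). They became positive for Hist1h2ak (0.30), Hist1h2bh (0.59), Hist2h2aa2 (0.68), Hist2h2aa3 (0.997), Hist2h2ac (0.41), Hist3h2bb (0.76), H3f3c (1.39), Snrpf (0.66) and Cd14 (0.18). Median centring turned H2afx (0.0098), Hist1h2bo (0.051) and Hist1h4b (0.057), quantile normalization Hist1h2bo (0.10), library weights Hist3h2ba (-0.083), and the replicate block H2afx (0.00052), Hist1h2bo (0.0080) and Hist1h4b (0.093). With single libraries left out, signs turned within -0.088 to 0.00052 for H2afx, -0.050 to 0.15 for H2afz, -0.043 to 0.0080 for Hist1h2bo, -0.11 to 0.093 for Hist1h4b and -0.0029 to 0.52 for Hist3h2ba.

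The replicate numbers of the labels did not pair the libraries: the correlations of deviations were -0.007, 0.001 and -0.037 for numbers 1 to 3. With the replicate block limma called 3 genes higher and 17 lower, and 0 replication-dependent and 0 variant genes in either direction.

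Leaving out each library in turn gave 3 to 828 higher and 25 to 1924 lower genes, 0 to 4 higher and 0 to 2 lower replication-dependent genes, 0 to 2 higher and 0 to 2 lower variant genes, and medians of -0.0033 to 0.15 for replication-dependent and -0.07 to 0.05 for variant genes. The pseudocount of 0.1, the filter of 5 FPKM and summed rows changed no histone call. The fragments behind a value are known for few genes, so depth limits could not be given for most.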
